A study of Mus musculus with 18 samples.

Results

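The genes described here are a module of replication and mitosis genes that are switched on in dividing cells. The list named 42 genes by their known roles, with no measured value in the rule for the list. It was drawn up with earlier results of these data known. Of the 42 genes, 40 had a probe set in the platform annotation used here, out of 17903 genes in all. Aurkb and Ccnb1 were the 2 without one and are not analysed here. For 22 of the 40 the annotation held more than 1 probe set, and the one with the highest mean over all 18 arrays stood for the gene. Values are log2 signal with a floor of 5.64, and a difference of 1 on this scale is a doubling. The samples were mouse cells on the way to becoming induced pluripotent stem cells (iPSC) and finished iPSC lines, with or without Tcf3, the older name of Tcf7l1, which encodes a DNA-binding partner of beta-catenin. All cells had received reprogramming factors, named OCK or OSK in the labels. The letters are read here as Oct4, c-Myc and Klf4 and as Oct4, Sox2 and Klf4, which the labels do not spell out. OCK reprogramming cultures of Tcf3 wild-type (wt) and Tcf3 knockout (ko) genotype were collected on days 11, 15, 19, 22 and 26, and each genotype had 1 array on each day. Of the established iPSC clones 2 were OCK ko, 2 OSK ko and 1 OSK wt, and no OCK wt iPSC clone was among them. A single partially reprogrammed OCK clone of wt genotype was treated with control siRNA (1 array) or with Tcf3 siRNA A or B (1 array each) and collected on day 2. Per the series' design text, the ko clones of each factor set came from 2 different cell lines. Whether arrays of a group came from separate cultures is not stated in the labels. The p-values therefore reflect only how much these arrays differ from each other, which may be technical.

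Before a cell divides, the origin factors Cdc6 and Cdt1 load the Mcm2 to Mcm7 helicase onto DNA, and Cdc45 joins it when the origin fires. Cyclin E and cyclin A with their kinases drive the entry into and passage through S phase, and cyclin B with Cdk1 drives mitosis, in which kinetochore proteins, the spindle checkpoint and motor proteins separate the chromosomes. Transcription of these genes rises in 2 waves, the first by E2F factors at the start of S phase and the second by B-Myb (Mybl2), FoxM1 and the MuvB complex in G2 phase. Mouse pluripotent cells are known for short gap phases and fast division, whereas fibroblasts divide slowly and stop as cultures become crowded or senescent.

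Some promoters of the module carry motifs linked to these waves, and 6 are printed to show where the motifs sit. They belong to replication, checkpoint, spindle pole, chromosome and motor genes described with their values further on. The choice used the measured values: the 2 genes that rose most from early cultures to iPSC among licensing genes, among cyclins and kinases, and among spindle genes. The motifs searched were the CCAAT box (CCAAT, bound by NF-Y), the cell cycle homology region or CHR element (TTTGAA, bound by MuvB) and 2 forms of the E2F site (TTTGGCGC and TTTCCCGC), on both strands of the 250 bases before a RefSeq transcript start in the mouse build GRCm38.p6. No motif's letters contain those of another, though neighbouring matches may share letters at their ends. Of the 42 listed genes 34 had such a sequence, 33 of them measured. The sequences run 5′ to 3′ towards the gene on its own strand, ending at the base before the transcript start, with every match to a motif in capitals. The replication genes Cdc6 at chr11:98907901-98908150 (plus strand) and Mcm5 at chr8:75109259-75109508 (plus strand) each held 1 E2F site, beginning 138 and 149 bases before the start, and Mcm5 also held 2 CCAAT boxes.
Cdc6: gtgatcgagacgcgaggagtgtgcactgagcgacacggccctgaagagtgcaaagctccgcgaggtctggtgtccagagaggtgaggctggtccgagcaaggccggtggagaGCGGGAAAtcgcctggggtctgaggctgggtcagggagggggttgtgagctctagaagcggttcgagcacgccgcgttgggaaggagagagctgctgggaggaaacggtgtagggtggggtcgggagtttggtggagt
Mcm5: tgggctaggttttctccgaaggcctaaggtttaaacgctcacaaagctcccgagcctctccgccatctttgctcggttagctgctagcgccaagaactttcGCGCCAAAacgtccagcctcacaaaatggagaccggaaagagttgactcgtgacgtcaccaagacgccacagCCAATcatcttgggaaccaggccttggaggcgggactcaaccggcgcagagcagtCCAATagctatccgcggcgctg
The mitotic kinase genes Bub1 at chr2:127831860-127832109 (minus strand) and Aurka at chr2:172370571-172370820 (minus strand) held 2 CCAAT boxes each and no E2F site or CHR element.
Bub1: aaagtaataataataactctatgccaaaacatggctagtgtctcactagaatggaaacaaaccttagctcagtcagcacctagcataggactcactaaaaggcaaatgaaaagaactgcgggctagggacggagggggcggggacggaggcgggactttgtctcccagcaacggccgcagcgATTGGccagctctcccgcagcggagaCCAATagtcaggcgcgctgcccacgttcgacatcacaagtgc
Aurka: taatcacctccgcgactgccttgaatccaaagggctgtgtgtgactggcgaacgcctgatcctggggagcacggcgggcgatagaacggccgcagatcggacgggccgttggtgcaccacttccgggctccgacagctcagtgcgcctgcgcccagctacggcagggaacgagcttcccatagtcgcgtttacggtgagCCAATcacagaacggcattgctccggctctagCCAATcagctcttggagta
Top2a at chr11:99024190-99024439 (minus strand) held 6 CCAAT boxes and 2 CHR elements, one of them beginning 23 bases before the start, and Kif11 at chr19:37376132-37376381 (plus strand) held 1 CCAAT box 45 bases and 1 CHR element 19 bases before the start.
Top2a: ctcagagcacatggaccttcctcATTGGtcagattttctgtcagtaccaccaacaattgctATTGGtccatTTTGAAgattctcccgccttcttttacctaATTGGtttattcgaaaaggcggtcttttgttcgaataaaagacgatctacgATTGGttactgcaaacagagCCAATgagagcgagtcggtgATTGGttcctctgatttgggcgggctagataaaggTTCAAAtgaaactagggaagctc
Kif11: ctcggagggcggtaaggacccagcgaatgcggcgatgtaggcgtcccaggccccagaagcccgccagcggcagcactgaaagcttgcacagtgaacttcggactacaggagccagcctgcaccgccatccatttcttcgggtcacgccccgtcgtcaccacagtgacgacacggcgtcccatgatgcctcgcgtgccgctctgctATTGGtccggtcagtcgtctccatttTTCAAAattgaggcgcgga

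A CCAAT box was found in 25 of the 34 promoters (73.5%), against 37.5% of 27025 genes with a RefSeq promoter of this length. At least 2 of them were found in 15 (44.1%), against 11.5%. A CHR element was found in 9 of 34 (26.5%), against 18.3%, and each of these 9 promoters also held a CCAAT box, a combination found in 6.5% of all genes. An E2F site in the letters searched was found in 4 of 34 (11.8%), against 1.5%, and all 4 were replication genes (Cdc6, Mcm5, Mcm6 and Mcm7). The 9 genes with a CHR element were Cdc45, Mcm2, Ccnb2, Cdk1, Cdc20, Kif11, Prc1, Top2a and Mki67. E2f1, Mybl2, Ccne1, Cdt1, Tyms, Mad2l1, Nusap1 and Birc5 held no match to any of the motifs in this window. These are matches of letters, not measured sites.

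Across the whole data set, between 12102 and 12499 of 17903 genes lay above the floor on an array. The mean values of cell state markers set iPSC apart from early cultures. In the mean of pluripotency markers the partial clone lay below every late culture array. The mean of 8 pluripotency markers was 6.38 to 7.52 on the 4 early culture arrays (days 11 and 15), 8.89 to 10.11 on the 4 late ones (days 22 and 26), 8.43 to 8.61 in the partial clone and 12.49 to 12.84 in iPSC. The mean of 8 fibroblast markers was 13.55 to 13.63, 12.46 to 13.04, 9.05 to 9.49 and 6.45 to 7.72 in the same order. Of the 8 pluripotency markers, Zfp42 and Esrrb were at the floor on every early array. Pou5f1 (Oct4) did not follow the mean. It was 10.32 to 10.94 on early arrays, 12.20 to 12.69 on late ones, 12.76 to 12.83 in the partial clone and 11.90 to 12.35 in iPSC. Pou5f1 and Sox2 are also among the reprogramming factors as the labels are read here. Tcf7l1 was lower in OSK ko than in the OSK wt clone (-1.25 ± 0.11, SE; limma adjusted p = 0.0215). This did not pass when OSK ko clone 1 (adjusted p = 0.154) or clone 2 (0.180) was left out, nor with only the 5 iPSC arrays fitted (0.147). In the cultures Tcf7l1 was lower in ko on each day, with a difference of -0.58 over the 5 days that did not pass limma's test. On day 11 it had 9.48 in ko and 9.90 in wt, and on day 15 it had 9.37 and 9.70. Tcf7l1 stayed above the floor on every ko array, and it is not known here if its probes lie within the deletion. Of the 40 genes, 37 were above the floor on all 18 arrays. The probe set of Tyms, which encodes thymidylate synthase, was at the floor on 15 arrays, so its level was in effect not measured.

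The module was low in early cultures and highest in iPSC. The median over the 40 genes was 7.65 to 8.82 on the 4 early culture arrays, 9.36 and 9.44 on day 19, 9.52 to 10.18 on the late ones, 10.11 to 10.55 in the partial clone and 11.29 to 11.49 in iPSC. No iPSC array overlapped the other arrays in this median. Against early cultures, 39 of the 40 genes were higher in iPSC (limma adjusted p under 0.05, 5 against 4 arrays), all but Tyms, and 41.8% of 13814 genes tested were higher by the same rule. The median difference was 2.90, against 0.08 over all genes tested. Against late cultures 37 were higher (background 39.6%), with a median difference of 1.31, and Ccne2, Mki67 and Tyms did not pass. Against the partial clone 28 were higher (background 35.8%) and 3 were lower (background 26.3%). The 3 comparisons share the iPSC arrays. They also mix factor sets and genotypes, and among OCK ko arrays alone 39 genes were higher in iPSC than in early cultures (background 33.5%) and 32 higher than in late cultures (background 25.6%). The clone and culture groups differed in cell state markers as well as in the module, and how much the change of cell types contributed was not tested. In RNA from whole cultures, fewer dividing cells and less of each RNA per cell cannot be told apart.

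**Figure D1:**
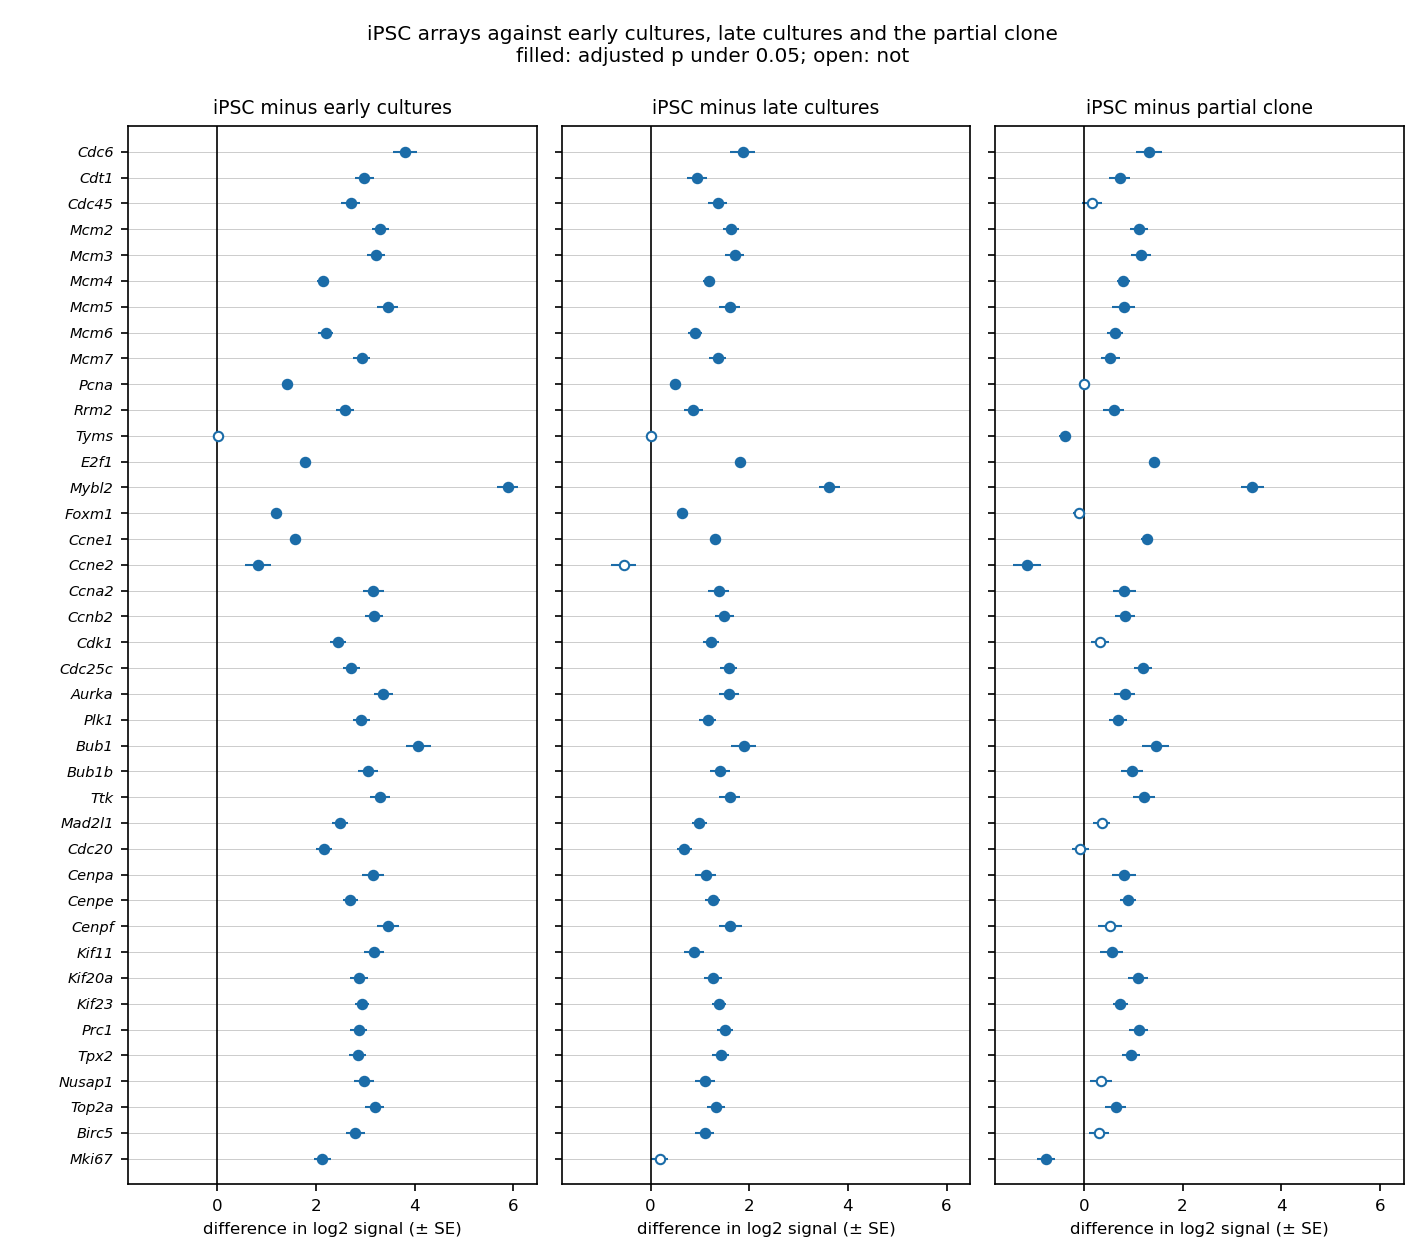
Difference in log2 signal (points) with its standard error (bars) between the 5 iPSC arrays and the early cultures (left), the late cultures (middle) and the partial clone (right) for 40 genes ordered by role. Filled points passed limma's test. In the left panel all points but Tyms are filled, Mybl2 lies furthest right at 5.89, and in the right panel Ccne2, Mki67 and Tyms are the filled points below 0, with Foxm1 and Cdc20 open and just below 0.

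Whether single arrays of the groups overlapped was also counted. Every iPSC array lay above all 13 other arrays for 32 of the 40 genes, and this was so for 20.5% of 14228 genes. The 8 exceptions were Cdc45, Pcna, Tyms, Foxm1, Ccne2, Cdk1, Cdc20 and Mki67. Every late culture array lay above every early one for 37 of 39 genes (background 26%), with E2f1 and Ccne1 as the exceptions. Every partial clone array lay above all 10 culture arrays for 17 of 40 genes (background 17.4%), a share of the module above that of all genes. In each of the other 23 the ko day 22 array reached or passed the lowest partial clone array, and in 19 of them it was the only culture array to do so.

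Origin licensing and replication fork genes were higher in iPSC than in early cultures in 10 of 10 cases (background 41.8%), with a median difference of 2.95. Cdc6, which recruits the helicase to origins, had 6.80, 7.88, 8.38, 8.83 and 8.49 in wt cultures on days 11, 15, 19, 22 and 26. In ko cultures it had 6.37, 6.44, 8.26, 9.40 and 8.53. The partial clone had 9.19 on the control siRNA array, 9.48 on that of siRNA A and 9.40 on that of siRNA B, and the iPSC had 10.48 (OSK wt), 10.59 and 10.57 (OSK ko) and 10.79 and 10.96 (OCK ko). Each step from early to late cultures to partial clone to iPSC was thus upward for Cdc6, apart from the overlap of the ko day 22 array with the partial clone. The difference between iPSC and early cultures was 3.81 ± 0.25 (limma adjusted p = 2.53e-10), a 14.0-fold higher signal. Of the 6 subunits of the Mcm helicase, Mcm5 differed most (3.46 ± 0.21) and Mcm4 least (2.14 ± 0.12) between iPSC and early cultures, and all 6 were also higher in iPSC than in the partial clone, by 0.53 ± 0.19 (Mcm7) to 1.16 ± 0.20 (Mcm3). Cdt1, the partner of Cdc6, was higher in iPSC than in early cultures by 2.98 ± 0.20 and than in the partial clone by 0.72 ± 0.21.

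The fork proteins were nearer to their iPSC level in the partial clone. Cdc45 had 9.10, 9.54 and 9.47 on the 3 partial clone arrays and 9.24 to 9.92 in iPSC, and the difference did not pass (0.16 ± 0.21, limma adjusted p = 0.526). Pcna, the sliding clamp of DNA polymerase, had 13.52, 13.75 and 13.64 in the partial clone and 13.60 to 13.70 in iPSC, and the difference was 0.01 ± 0.11 (adjusted p = 0.967). Both genes were clearly below the iPSC in early cultures, by 2.70 ± 0.19 for Cdc45 and 1.42 ± 0.10 for Pcna. Rrm2, the small subunit of ribonucleotide reductase that supplies deoxynucleotides, was higher in iPSC than in early cultures (2.59 ± 0.19), late cultures (0.86 ± 0.19) and the partial clone (0.60 ± 0.21). Tyms lay above the floor on 3 arrays only, those of siRNAs A and B (6.16 and 6.35) and of OCK ko clone 2 (5.73), and its lower value in iPSC than in the partial clone (-0.39 ± 0.11, adjusted p = 0.00449) rests on the siRNA arrays, being 0.02 against the control siRNA array alone.

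The 3 transcription factors behaved differently from each other. Mybl2, which encodes B-Myb, had the largest difference of the module. In wt cultures it had 5.81, 6.60, 7.44, 7.82 and 7.63, in ko cultures 5.64, 5.64, 7.50, 8.73 and 8.59, in the partial clone 8.36, 8.44 and 8.41, and in the 5 iPSC 11.63 to 12.06. The gap between the highest value outside iPSC (ko day 22) and the lowest iPSC value was therefore wide for this gene. iPSC exceeded early cultures by 5.89 ± 0.22 (limma adjusted p = 2.78e-13), late cultures by 3.62 ± 0.22 and the partial clone by 3.41 ± 0.24, and since both early ko values lay at the floor the first difference is a minimum. On the floored values the late cultures had covered at least 38.5% and the partial clone at least 42.1% of the log2 distance from early cultures to iPSC. The medians over 39 genes (without Tyms) were 53.6% and 74.6%.

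E2f1, an activator of the S phase genes, was flat through the cultures. In wt cultures it had 7.54, 7.67, 7.42, 7.64 and 7.70, in ko cultures 7.69, 7.66, 7.65, 7.65 and 7.43, 7.95, 8.10 and 7.91 in the partial clone, and 9.31 to 9.53 in iPSC. All 5 iPSC values lay above all others, and the cultures of different days overlapped. iPSC exceeded late cultures by 1.81 ± 0.08 (limma adjusted p = 3.63e-12) and the partial clone by 1.43 ± 0.08, and the change per day in the cultures was 0.00 ± 0.01 (adjusted p = 0.758). Foxm1, which drives G2 and M phase genes, was in contrast as high in the partial clone as in iPSC, with 8.34, 8.42 and 8.43 against 8.09 to 8.50 (-0.11 ± 0.11, adjusted p = 0.430). Its difference between iPSC and early cultures, 1.18 ± 0.10, was the second smallest of the 39 that passed.

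**Figure D2:**
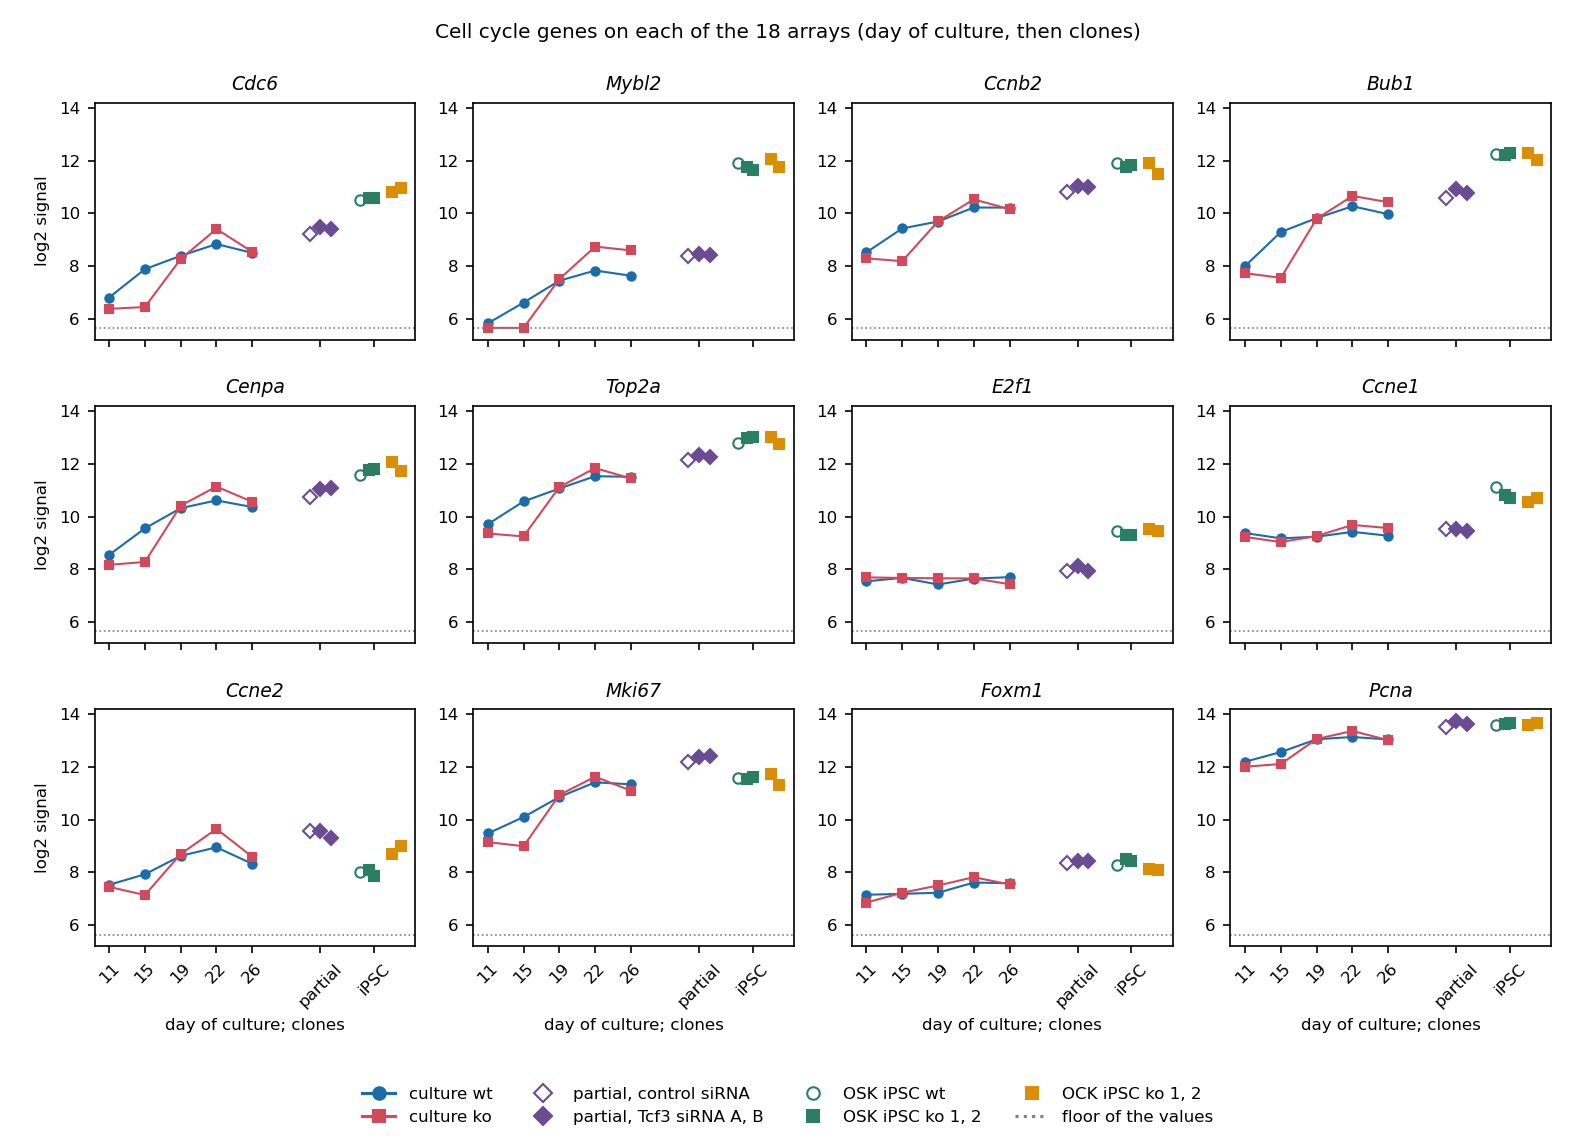
log2 signal of 12 genes on each of the 18 arrays: wt (blue circles) and ko (red squares) cultures by day, then the partial clone with control siRNA (open diamond) and Tcf3 siRNAs A and B (filled), then OSK (green) and OCK (orange) iPSC clones, with wt open. In the panels of Cdc6, Mybl2, Ccnb2, Bub1, Cenpa and Top2a the day 11 and 15 values are lowest and the iPSC values highest, E2f1 and Ccne1 are level through the cultures, and Ccne2 and Mki67 are highest in the partial clone or on ko day 22.

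Among cyclins the 2 forms of cyclin E went different ways. Ccne1 was level in the cultures, between 9.03 and 9.68 on all 10 arrays, was 9.53, 9.53 and 9.45 in the partial clone, and was 10.54 to 11.12 in iPSC. It exceeded late cultures by 1.30 ± 0.11 and the partial clone by 1.28 ± 0.12 in iPSC, having covered only 19.2% of the distance from early cultures to iPSC in the partial clone, the lowest share of the module there. Ccne2 had 7.53, 7.93, 8.63, 8.96 and 8.33 in wt cultures, 7.45, 7.14, 8.70, 9.66 and 8.59 in ko cultures, and 9.59, 9.57 and 9.31 in the partial clone. In iPSC it had 8.0 (OSK wt), 8.11 and 7.87 (OSK ko) and 8.70 and 9.02 (OCK ko), so that no iPSC value reached the partial clone. Ccne2 was lower in iPSC than in the partial clone (-1.15 ± 0.28, limma adjusted p = 0.00166), and against late cultures the difference of -0.54 ± 0.26 did not pass (adjusted p = 0.0688). It passed as lower there without OCK ko clone 1 (adjusted p = 0.0452), without OCK ko clone 2 (0.0162) or without the wt day 26 array (0.0221).

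The later cyclins followed the module. Ccna2 (cyclin A2) and Ccnb2 (cyclin B2) were higher in iPSC than in early cultures by 3.16 ± 0.21 and 3.17 ± 0.19, and than in the partial clone by 0.82 ± 0.23 and 0.83 ± 0.20. Ccnb2 had 8.51, 9.42, 9.68, 10.22 and 10.21 in wt and 8.28, 8.18, 9.69, 10.53 and 10.15 in ko cultures, 10.79, 11.05 and 10.99 in the partial clone and 11.48 to 11.90 in iPSC. Its groups from early cultures to iPSC did not overlap. Cdk1, the mitotic kinase that cyclin B activates, differed from early cultures by 2.44 ± 0.16 but from the partial clone by 0.33 ± 0.18, which did not pass (limma adjusted p = 0.119). Cdc25c, the phosphatase that activates Cdk1, was higher in iPSC than in the partial clone by 1.20 ± 0.18, and its wt day 11 value lay at the floor.

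Mitotic kinases and checkpoint genes were higher in iPSC than in early (background 41.8%) and in late cultures (background 39.6%) in 7 of 7 cases. They were higher than in the partial clone in 5 of 7 (background 35.8%). Bub1, a checkpoint kinase of the kinetochore, had 7.99, 9.28, 9.81, 10.26 and 9.96 in wt cultures and 7.72, 7.55, 9.79, 10.65 and 10.42 in ko cultures. It had 10.58, 10.91 and 10.78 in the partial clone and 12.03 to 12.27 in iPSC. Its iPSC values stood apart from all others, and the wt and ko cultures parted on day 15 and met again on day 19. The difference between iPSC and early cultures was 4.08 ± 0.25 (16.9-fold), second to Mybl2. Aurka, a kinase of the spindle poles, differed by 3.37 ± 0.20, Ttk, which starts checkpoint signalling, by 3.31 ± 0.20, the checkpoint kinase relative Bub1b by 3.05 ± 0.20 and the polo kinase Plk1 by 2.92 ± 0.17. The 2 that did not differ from the partial clone by limma's test were the checkpoint effector Mad2l1 (0.37 ± 0.17, adjusted p = 0.0772) and its target Cdc20, which activates the anaphase promoting complex (-0.07 ± 0.18, adjusted p = 0.757).

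At the centromere, Cenpa, the histone variant that marks it, was higher in iPSC than in early cultures by 3.15 ± 0.22, the kinetochore motor Cenpe by 2.70 ± 0.15 and Cenpf by 3.46 ± 0.22. Cenpa had 8.54, 9.55, 10.32, 10.61 and 10.36 in wt cultures, 8.16, 8.27, 10.41, 11.14 and 10.56 in ko cultures, 10.76, 11.04 and 11.10 in the partial clone and 11.57 to 12.06 in iPSC. The ko day 22 value thus passed the highest partial clone value, and iPSC lay above both. Against the partial clone Cenpa (0.81 ± 0.24) and Cenpe (0.89 ± 0.16) passed and Cenpf did not (0.54 ± 0.24, limma adjusted p = 0.0654).

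Spindle, cytokinesis and chromosome genes were higher in iPSC than in early cultures in 9 of 9 cases (background 41.8%). The motors Kif11, Kif20a and Kif23 differed by 3.17 ± 0.21, 2.88 ± 0.18 and 2.93 ± 0.14, the midzone bundler Prc1 by 2.87 ± 0.17, the spindle assembly factor Tpx2 by 2.85 ± 0.17 and the survivin gene Birc5 by 2.80 ± 0.19. Top2a, the topoisomerase that untangles chromosomes, had 9.70, 10.57, 11.06, 11.53 and 11.51 in wt and 9.35, 9.24, 11.12, 11.84 and 11.44 in ko cultures, 12.16, 12.34 and 12.27 in the partial clone and 12.74 to 13.02 in iPSC. For Top2a the order of early cultures, late cultures, partial clone and iPSC held with no overlap. Its differences from iPSC were 3.19 ± 0.19, 1.33 ± 0.19 and 0.65 ± 0.21. Against the partial clone Nusap1 (0.35 ± 0.22, limma adjusted p = 0.177) and Birc5 (0.31 ± 0.20, adjusted p = 0.206) did not pass.

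Mki67, which encodes the proliferation antigen Ki-67, did not follow this order. It had 9.48, 10.10, 10.87, 11.42 and 11.35 in wt cultures, 9.15, 9.0, 10.94, 11.64 and 11.11 in ko cultures, 12.21, 12.37 and 12.43 in the partial clone, and 11.57 (OSK wt), 11.56 and 11.61 (OSK ko) and 11.73 and 11.34 (OCK ko) in iPSC. The late cultures overlapped the iPSC, and all partial clone values lay above every iPSC value. It was higher in iPSC than in early cultures by 2.13 ± 0.17, did not pass against late cultures (0.18 ± 0.17, limma adjusted p = 0.350), and was lower than in the partial clone (-0.77 ± 0.18, adjusted p = 0.00151). Ccne2 and Mki67 were the only genes of the module, besides the nearly unmeasured Tyms, called lower in iPSC than in the partial clone.

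The 3 partial clone arrays came from 1 clone with different siRNAs, so they are not clones of their own. With their mean taken as 1 array, 18 genes were higher in iPSC (background 27.0%) and 2 were lower (background 2694 of 13571 genes). Against the control siRNA array alone, 24 were higher (background 28.1%) and 1 was lower (background 21.8%). That 1 was Ccne2 (-1.25, limma adjusted p = 0.0287), while Mki67 (-0.64, adjusted p = 0.0820) did not pass.

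In the cultures the rise was followed by day. A straight line over days 11 to 26, averaged over both genotypes, rose in 37 of 39 genes tested and fell in 0 (limma adjusted p under 0.05, 10 arrays, background 18%). The median slope was 0.13 per day, against 0.00 over all genes tested. The steepest were Mybl2 (0.19 ± 0.03 per day), Kif11 (0.18 ± 0.03), Bub1 (0.18 ± 0.03), Cenpa (0.17 ± 0.03) and Cdt1 (0.16 ± 0.04). E2f1 and Ccne1 (0.02 ± 0.01, adjusted p = 0.196) did not pass. The count depends on how deviations shared by both arrays of a day are treated: with day as a random block 15 genes rose (background 5.32%), and a line through the 5 day means called 9 (background 1.91%), namely Mybl2, Ccna2, Ccnb2, Bub1, Cenpf, Kif11, Kif23, Nusap1 and Top2a. Without day 11 limma called 0 genes of the module and 0 of all genes, although the median slope was 0.12 and 29 of the 39 had an unadjusted p under 0.05, against 29.6% of all genes. In the same arrays and fit 6 of 8 pluripotency, 4 of 5 neuronal and 2 of 5 trophoblast markers rose, and 5 of 8 fibroblast, 4 of 6 macrophage and 2 of 5 keratinocyte markers fell (background 18% rising and 18.7% falling). With day as a random block 5 of 8 pluripotency, 0 of 5 neuronal and 1 of 5 trophoblast markers rose (background 5.32%). In that setting 1 of 8 fibroblast, 2 of 6 macrophage and 1 of 5 keratinocyte markers fell (background 706 of 13428 genes). The neuronal marker mean was highest on wt day 26, at 10.11 against 6.23 on ko day 26. The trophoblast marker mean was highest on ko day 26, at 8.90 against 6.54 on wt day 26. The part of these cell types in the result was not tested.

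**Figure D3:**
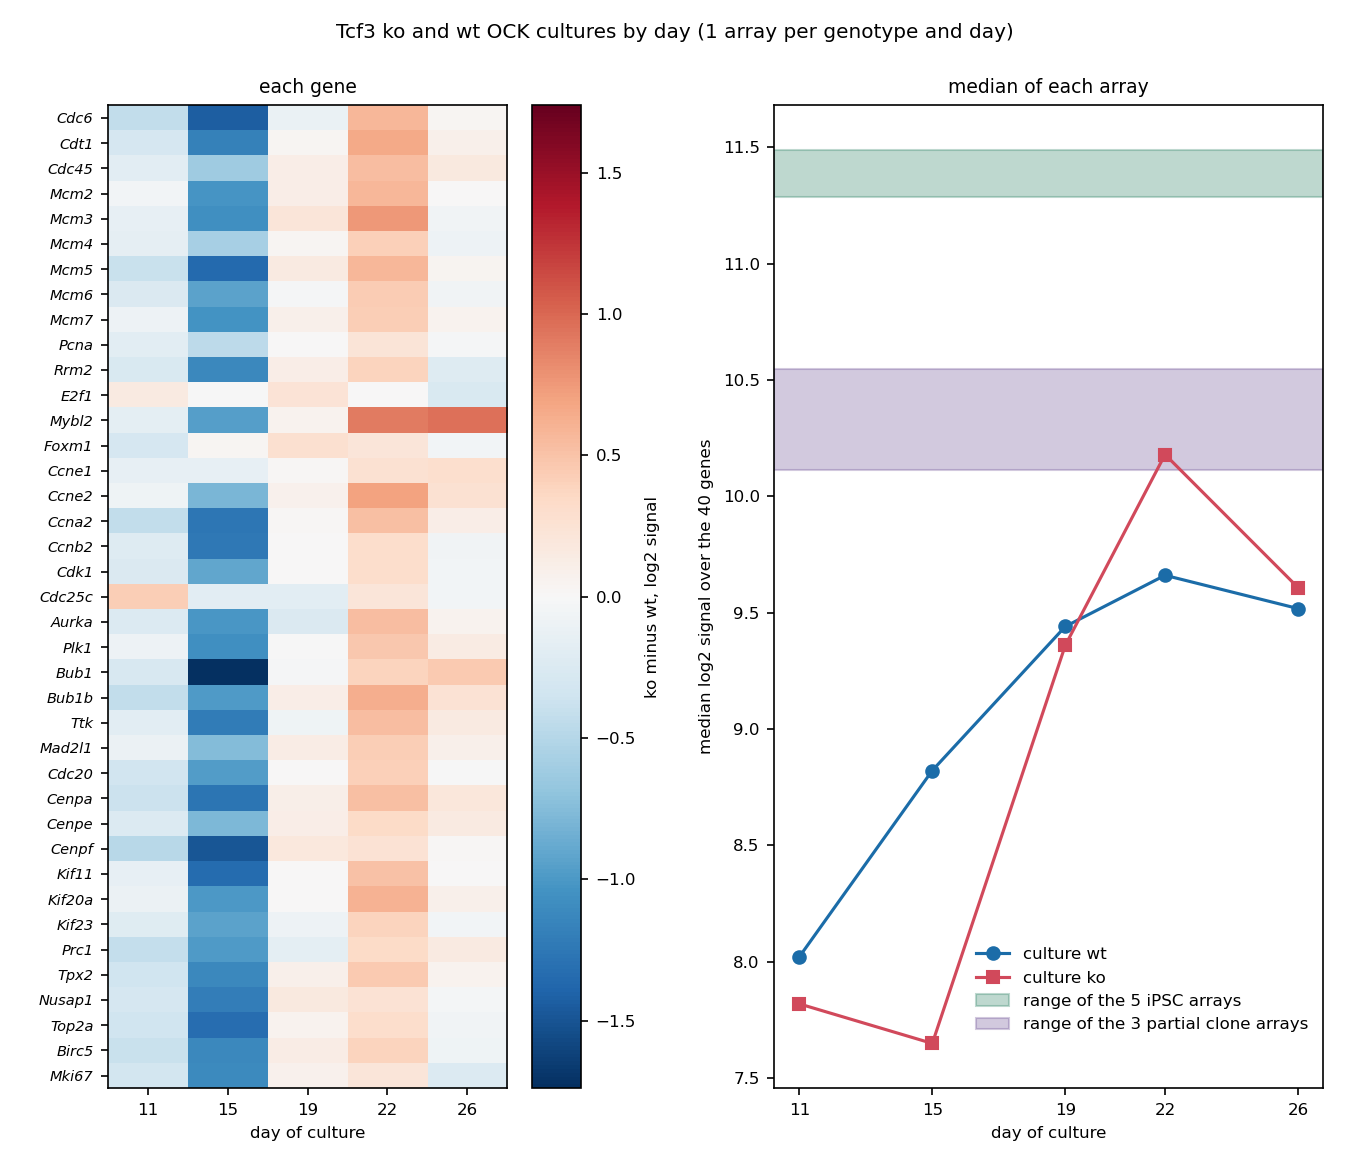
Left, ko minus wt difference in log2 signal for each of 39 genes (rows) on each day (columns), from blue (lower in ko) to red (higher). Right, median log2 signal over the 40 genes on each culture array by day, with the ranges of the partial clone and iPSC arrays as bands. The day 15 column is blue for nearly all genes and the day 22 column red, and the ko line is level to day 15, rises steeply to day 19 and passes the wt line by day 22.

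The rise was not even and not the same in both genotypes. For wt cultures the median step over the 39 genes was 0.68 from day 11 to 15, 0.49 to day 19, 0.39 to day 22 and -0.18 to day 26. In ko cultures the steps were -0.11, 1.59, 0.76 and -0.56. The ko cultures were thus level or slightly down while wt cultures rose, and then made a larger step. Between days 22 and 26 values went down in 35 of 39 genes in wt and in 39 of 39 in ko, Ccne2 most in both (-0.63 in wt, -1.06 in ko). Of all genes tested 50.8% went down in wt and 47.8% in ko between these days. The median step over all genes was between -0.02 and 0.00 in every interval. Each step compares 1 array with 1 array and was not tested.

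Loss of Tcf3 was compared with wt on matched days. No gene passed over the 5 days in the module (0 of 39) or among all genes (0% of 13428), by limma with day as a block. At an unadjusted p under 0.05, 0 of the 39 and 3.37% of all genes were found. The median difference of ko and wt over the module was -0.24 on day 11, -1.02 on day 15, 0.06 on day 19, 0.43 on day 22 and 0.04 on day 26, with 37, 38, 9, 0 and 16 of the 39 genes lower in ko. Over all genes the median was between 0.00 and 0.03 on each day. The largest differences on that day were those of Bub1 (-1.74), Cenpf (-1.48), Cdc6 (-1.44), Mcm5 (-1.35), Kif11 (-1.34) and Top2a (-1.33). E2f1 (-0.01), Foxm1 (0.04), Ccne1 (-0.14) and Cdc25c (-0.18) differed least on day 15. On day 22 all 39 were higher in ko, most of all Mybl2 (0.91), Mcm3 (0.76), Ccne2 (0.70) and Cdt1 (0.66). Mybl2 was also 0.96 higher in ko on day 26, when the other genes lay between -0.27 (E2f1) and 0.46 (Bub1).

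Over all 5 days the median difference was -0.16, with 32 of 39 genes negative, and without day 15 it was 0.06, with 34 positive. Pluripotency markers differed along with the module on that day, with a mean of 6.50 in ko and 7.52 in wt, while the fibroblast marker means were 13.62 and 13.55 and the keratinocyte marker means 8.44 and 7.93. On day 22 the pluripotency marker mean was 9.24 in ko and 8.89 in wt, the fibroblast mean 12.46 and 12.79 and the keratinocyte mean 6.65 and 8.14. Their part in the result was not tested, and a deviation of that single array and the genotype cannot be told apart. The slope of the ko cultures was above that of wt in 37 of 39 genes, with a median difference of 0.05 per day, which was 0.03 without day 15 and 0.10 without day 11. It passed in 0 of 39 by limma (0% of all genes), with 0 of 39 and 1.55% of all genes at an unadjusted p under 0.05.

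In established OSK iPSC no gene of the module passed between ko and wt. The median was 11.32 in the OSK wt clone and 11.43 and 11.49 in the OSK ko clones. Of 39 genes 0 passed between OSK ko and wt (limma, 2 against 1 array, background 0.687% in either direction), and 6 had an unadjusted p under 0.05, against 12.8% of all genes. The median difference was 0.03, and the widest were those of Cdc25c (0.36 ± 0.21), Ccne1 (-0.35 ± 0.13), Rrm2 (-0.35 ± 0.12) and Cdc20 (-0.33 ± 0.12). A difference smaller than the spread that these standard errors give was not detectable with 3 arrays.

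Between OCK and OSK ko clones 1 gene was higher and 1 lower of 40 (limma, 2 against 2 arrays, background 4.87% higher and 5.80% lower). Ccne2 was higher in OCK, with 8.70 and 9.02 against 8.11 and 7.87 (0.87 ± 0.16, adjusted p = 0.0243). The OSK wt clone, at 8.0, lay with the OSK ko clones. Foxm1 was lower in OCK, with 8.14 and 8.09 against 8.50 and 8.44 (-0.36 ± 0.08, adjusted p = 0.0487). Each call was lost when either OSK ko clone was left out, and also when only the 5 iPSC arrays were fitted. With the clone number as a replicate block Ccne2 remained and Foxm1 did not (adjusted p = 0.0792).

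With Tcf3 siRNA most genes of the module had slightly higher values in the partial clone, and none passed the test. The median over the 40 genes was 10.11 with control siRNA, 10.53 with siRNA A and 10.55 with siRNA B. Both siRNA arrays lay above the control in 36 of 40 genes, as they did in 36.6% of all genes. The 4 others were E2f1, Ccne1, Ccne2 and Kif23. The median difference from the control over the 40 genes was 0.28 for siRNA A and 0.24 for siRNA B, against 0.01 and -0.02 over all genes. Of the 40 genes 0 passed (limma, 2 arrays against 1, background 0.111% in either direction), and 13 had an unadjusted p under 0.05, against 12.7% of all genes. This count was 5 without siRNA A, 7 without siRNA B, 22 with an intensity trend in the prior and 24 with median centring. The widest differences above the floor were those of Aurka (0.54 ± 0.13, adjusted p = 0.197), Ccna2 (0.46 ± 0.10, adjusted p = 0.174), Cdc45 (0.41 ± 0.16), Cenpf (0.40 ± 0.14) and Mcm5 (0.39 ± 0.11). Ccne2 went the other way, from 9.59 with control siRNA to 9.57 and 9.31. All differences share the single control array, so a deviation of that array cannot be told apart from an effect of the siRNAs. Tcf7l1 itself was lower with siRNA (-1.15 ± 0.11, limma adjusted p = 0.0495), a call that was lost without siRNA A (adjusted p = 0.230) or B (0.294), with only genes above the floor (0.138), with quantile normalization (0.0583) and with median centring (0.0705). The fibroblast marker mean was 9.49 on the control array, 9.05 for siRNA A and 9.14 for siRNA B, and its part in the result was not tested.

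**Figure D4:**
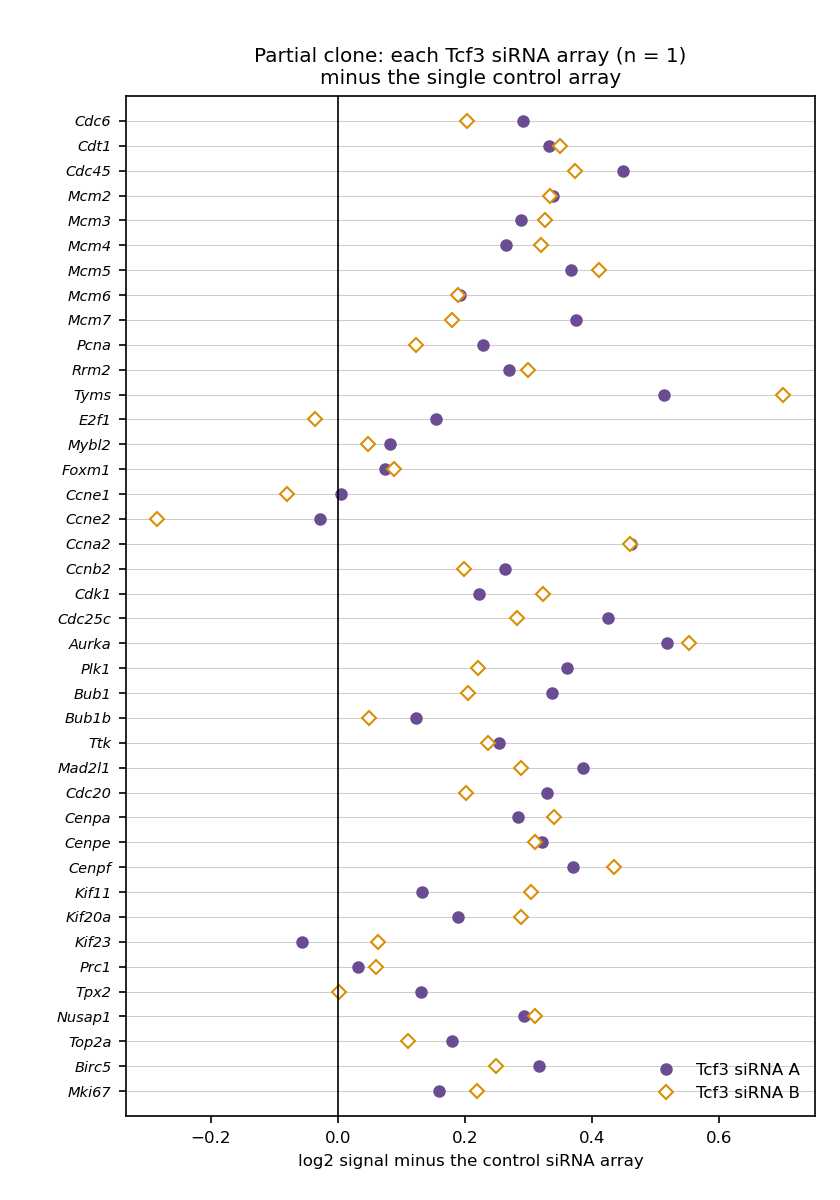
log2 signal on the arrays of Tcf3 siRNA A (filled circles) and siRNA B (open diamonds) minus the single control siRNA array of the partial clone, for 40 genes ordered by role. Most points lie between 0 and 0.55, and Ccne2 lies below 0 for both siRNAs.

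Cell cycle genes outside the module differed by role. Of 13 further genes of origin recognition, the GINS complex and origin firing, 13 were higher in iPSC than in early cultures (limma, background 41.8%). Against the partial clone 12 of these were higher (background 35.8%). The largest differences from early cultures were those of Orc1, the largest subunit of the origin recognition complex (3.92 ± 0.20), the licensing inhibitor Gmnn (3.23 ± 0.21), and Dbf4 (3.09 ± 0.15) and Gins1 (3.09 ± 0.23), which take part in origin firing. Of 7 genes of anaphase control 7 were higher in iPSC than in early cultures (background 41.8%). Fbxo5 (3.58 ± 0.20), an inhibitor of the anaphase promoting complex, and the separase gene Espl1 (3.56 ± 0.19) were in front. In the course over days 8 of the 13 and 6 of the 7 rose and 0 fell (background 18% rising), and with day as a random block 4 of the 13 and 4 of the 7 rose (background 5.32%). Of 7 other E2F genes 7 were higher than in early cultures (background 41.8%), among them E2f7 (2.44 ± 0.19) and E2f8 (2.33 ± 0.15), both repressors. Against the partial clone 2 of the 7 were higher (background 35.8%) and 1 was lower (background 26.3%), shares below those of all genes. The lower one was E2f2 (-2.06 ± 0.27).

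G1 cyclins and their kinases did not move in 1 direction. Of 8 tested against early cultures 4 were higher in iPSC and 3 lower, where 41.8% of all genes were higher and 33.6% lower, so these shares lay near those of all genes. Ccnd2 (-3.67 ± 0.31) and Cdk6 (-2.74 ± 0.33), which link growth signals to the cell cycle, were lower, and Cdk2 (2.18 ± 0.11), the partner of cyclins E and A, was higher. Of 12 cell cycle inhibitors 6 were lower in iPSC than in early cultures (background 33.6%) and 4 higher (background 41.8%). Lower were Cdkn2a (-5.12 ± 0.19), which encodes p16 and p19Arf, Cdkn1c (-4.75 ± 0.24), Cdkn2b (-3.07 ± 0.18) and Cdkn1a (-2.13 ± 0.09), which encodes p21. Against the partial clone 9 of 12 inhibitors were lower in iPSC (background 26.3%) and 1 was higher (background 35.8%), the mitotic entry kinase Wee1 (0.93 ± 0.10). In the cultures over days 5 of the 12 fell, among them Cdkn1c (-0.10 ± 0.03 per day) and Cdkn2b (-0.08 ± 0.02), and 4 rose, Rb1 most (0.13 ± 0.01), where 18.7% of all genes fell and 18% rose. With day as a random block 0 of the 12 fell and 2 rose, where 706 of 13428 genes fell and 5.32% rose.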

How the data were processed

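Total RNA of 18 samples was measured on Affymetrix mouse arrays, 1 array per sample, and groups, clone numbers, siRNAs and days came from the sample labels. The deposited table holds log2 signal for 40508 probe sets, which the authors computed with RMA, per the submitters' processing notes. RMA corrects background, normalizes and sums up the probes of a set, and its version is not given here. Values had been set to a floor of log2 50, seen on 44.9% to 46.6% of values per array, so a floored value is an upper limit and a difference against it a minimum. Precision is limited by how few arrays a group has. Gene symbols came from the platform annotation (31076 probe sets with 1 symbol, 636 with several, 8796 unnamed), and promoters and motif windows from RefSeq (GRCm38.p6), in which 34 of the 42 listed genes were found.

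All comparisons used limma 3.58.1 in R 4.3.3 on all genes, with Benjamini-Hochberg adjustment over all genes tested and a threshold of 0.05. Because floored genes have almost no spread, the prior variance came only from genes never at the floor in a fit, other genes received no smaller variance than that prior, and genes floored on all compared arrays were not tested. This choice too was made knowing the floor, and limma's plain prior was an alternative. Stage comparisons used 1 fit of 18 arrays, in which early cultures are days 11 and 15 and late ones days 22 and 26. Clone comparisons used 1 fit of the 8 clone arrays, where a lone array is assumed to vary like the groups of 2. The code was tested on simulated data. The module and all gene lists were chosen with earlier results of these data known. All 40 measured genes were eligible for naming, and from other lists up to 4 genes with the largest change among those that passed, besides Tcf7l1. Alternatives were averaging the probe sets of a gene, other priors, quantile normalization, median centring, only genes above the floor, other error terms for the days, and leaving out arrays or days. Whether clone numbers pair OSK and OCK ko clones could not be settled, since only 2 pairs exist.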

Additional observations from a re-analysis of the deposited data

Results flagged for a closer look

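The ko minus wt difference of the module had opposite signs on different days. The median over 39 genes was -1.02 on day 15, when 38 of 39 were lower in ko, and 0.432 on day 22, when 39 of 39 were higher. Each day compares 1 ko array with 1 wt array, and this difference between days was not tested.

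The step from day 11 to day 15 also differed by genotype. The median step was 0.683 in wt, with 38 of 39 genes up (46.1% of all genes), and -0.107 in ko, with 24 of 39 down (46.9% of all genes). This difference was not tested either.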

How the results depend on the processing

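Under every alternative run, the counts of genes higher in iPSC stayed at 37 to 39 against early and 32 to 37 against late cultures. Leaving out the ko day 15 array alone and the crossed clone pairing were chosen after seeing the data. Without 1 array, 0 to 1 genes were lower than in late cultures and 25 to 28 were higher than in the partial clone. Against the partial clone 18 were higher with its arrays averaged, and 1 was lower with only the control siRNA array, where Tyms turned to 0.017, since Tyms is above the floor in that clone only on the Tcf3 siRNA arrays. The course count was 15 with day as a random block and 9 through day means, and 0 to 37 without 1 day; these have fewer points or a larger error term. For OCK minus OSK ko clones, leaving out 1 clone gave 0 to 6 genes higher and 0 to 2 lower, and the fit of 5 iPSC arrays 0 and 0. Lower counts were 0 with the mean of probe sets, median centring, the clone number as replicate block (higher 1) and crossed clone pairing (higher 1); the cause was not tested. Clone differences of equal number correlated with r = -0.171 across 10284 genes, so the numbers are not shown to pair the clones. Of single-gene results 2137 kept call and direction, 146 lost the call and 1 reversed. Array medians differed by at most 0.14 before median centring.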
